A study of Mus musculus with 9 samples.

Results

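The genes described here are 10 members of the canonical WNT pathway in mouse: Ctnnb1, which encodes β-catenin, the TCF/LEF family genes Tcf7l1, Tcf7, Lef1 and Tcf7l2, and the pathway's target and feedback genes Axin2, Nkd1, Rnf43, Znrf3 and Sp5. They were taken by symbol from 35896 genes, after the deposited transcripts had been assigned to genes with GENCODE M21, and all 10 were found. Of these, 9 passed edgeR's expression filter together with 14648 genes in all, and Sp5 did not.

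RNA was measured in 9 libraries, 3 from each of 3 groups, all made from E14 mouse embryonic stem cells. Control cells with LIF2i were held in serum medium with the cytokine LIF, 1 µM of the MEK inhibitor PD0325901 and 1 µM of CHIR99021, which inhibits glycogen synthase kinase-3β. Control cells without LIF2i were grown for 72 h in the same serum medium lacking all of these agents. CK666 cells were withdrawn in the same way for 72 h with 80 µM CK666, which inhibits the actin-branching Arp2/3 complex. The stock was in DMSO, and since no label says that controls were given DMSO, the drug and its solvent cannot be told apart. All groups came from 1 cell line, and in bulk RNA fewer cells of a type cannot be told apart from less RNA per cell.

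In the absence of a WNT signal, β-catenin is phosphorylated by glycogen synthase kinase 3 within a destruction complex built on AXIN and APC, and is then degraded. When that kinase is inhibited or WNT binds its receptors, β-catenin accumulates, enters the nucleus and binds TCF/LEF proteins on DNA, which switches their target genes from repression to activation. In embryonic stem cells TCF7L1 is best known as a repressor of pluripotency genes, and the inhibition of glycogen synthase kinase 3 by CHIR99021 is used to relieve that repression. Withdrawal of LIF2i therefore also removed an agent that acts on this pathway, together with LIF and the MEK inhibitor, and the parts of the 3 agents cannot be told apart.

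The libraries held between 16894327 and 22550952 estimated counts. The replicate 1 libraries stood apart from the others in every group: 15637 to 17551 genes were detected there with any count, whereas replicates 2 and 3 had 18080 to 18636 such genes. The chi-square per gene between libraries of a group was 120 to 226 for pairs with replicate 1 and 17.5 to 22.0 for the pairs without it. The pluripotent cell markers Pou5f1, Sox2, Sall4, Lin28a and Utf1 had a summed level of 2031 to 2434 TPM with LIF2i, 2251 to 2627 TPM without it and 2027 to 2721 TPM with CK666. Of these 5 markers, Lin28a and Utf1 were called higher and Sox2 and Sall4 lower on withdrawal. Of the lists for other cell types, fibroblast genes (Col1a1, Col1a2, Col3a1, Thy1 and Postn) summed to 4.66 to 7.32 TPM with LIF2i, 23.8 to 28.6 TPM without it and 13.8 to 22.4 TPM with CK666, and 3 of the 4 tested (Col1a1, Col1a2 and Thy1) rose on withdrawal, where 21.1% of all genes were called higher. Without the replicate block 1 of the 4 was called. Trophectoderm genes (Elf5, Tfap2c, Krt8, Hand1 and Gata3) summed to 52.6 to 99.2, 51 to 124 and 41.2 to 95.5 TPM in the same order, with Krt8 higher and Tfap2c lower on withdrawal and Elf5 under 1 TPM in every library. Primitive endoderm genes (Gata4, Gata6, Sox17, Sox7 and Pdgfra) reached at most 9.62 TPM in any library, with none called on withdrawal by edgeR with all libraries, 1 of 3 tested called without replicate 1, and Pdgfra higher in CK666 cells than in LIF2i cells. Primitive streak and mesoderm genes (T, Mixl1, Eomes, Mesp1 and Tbx6) reached at most 9.70 TPM, with Mixl1 higher on withdrawal. In CK666 cells against LIF2i cells Mixl1 was higher and Eomes lower. Pdgfra and Mixl1 were under 1 TPM in every library. The part of other cell types in the results below was not tested.

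In control cells, 5 of the 9 tested genes rose after LIF2i withdrawal and none fell: Lef1 and Tcf7 of the TCF/LEF family, Nkd1 and Rnf43 of the feedback genes, and, by less, Tcf7l1. Ctnnb1, Tcf7l2, Axin2 and Znrf3 did not pass the test. Of all 14648 genes, 40.7% were called in this comparison, 21.1% as higher and 19.7% as lower. Without the replicate block 4 of the 9 were called, against 24% of all genes. The CPM ranges of Tcf7, Lef1, Nkd1 and Rnf43 did not overlap, 4 of the 9 genes, where 21.5% of all genes lay higher without overlap. The median log2 fold change of the 9 genes was 0.67, against 0.01 over all genes tested. With CK666 during withdrawal none of the 9 was called, in a comparison in which 2.05% of all genes were. The plot of levels by library shows all 10 genes.

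**Figure D1:**
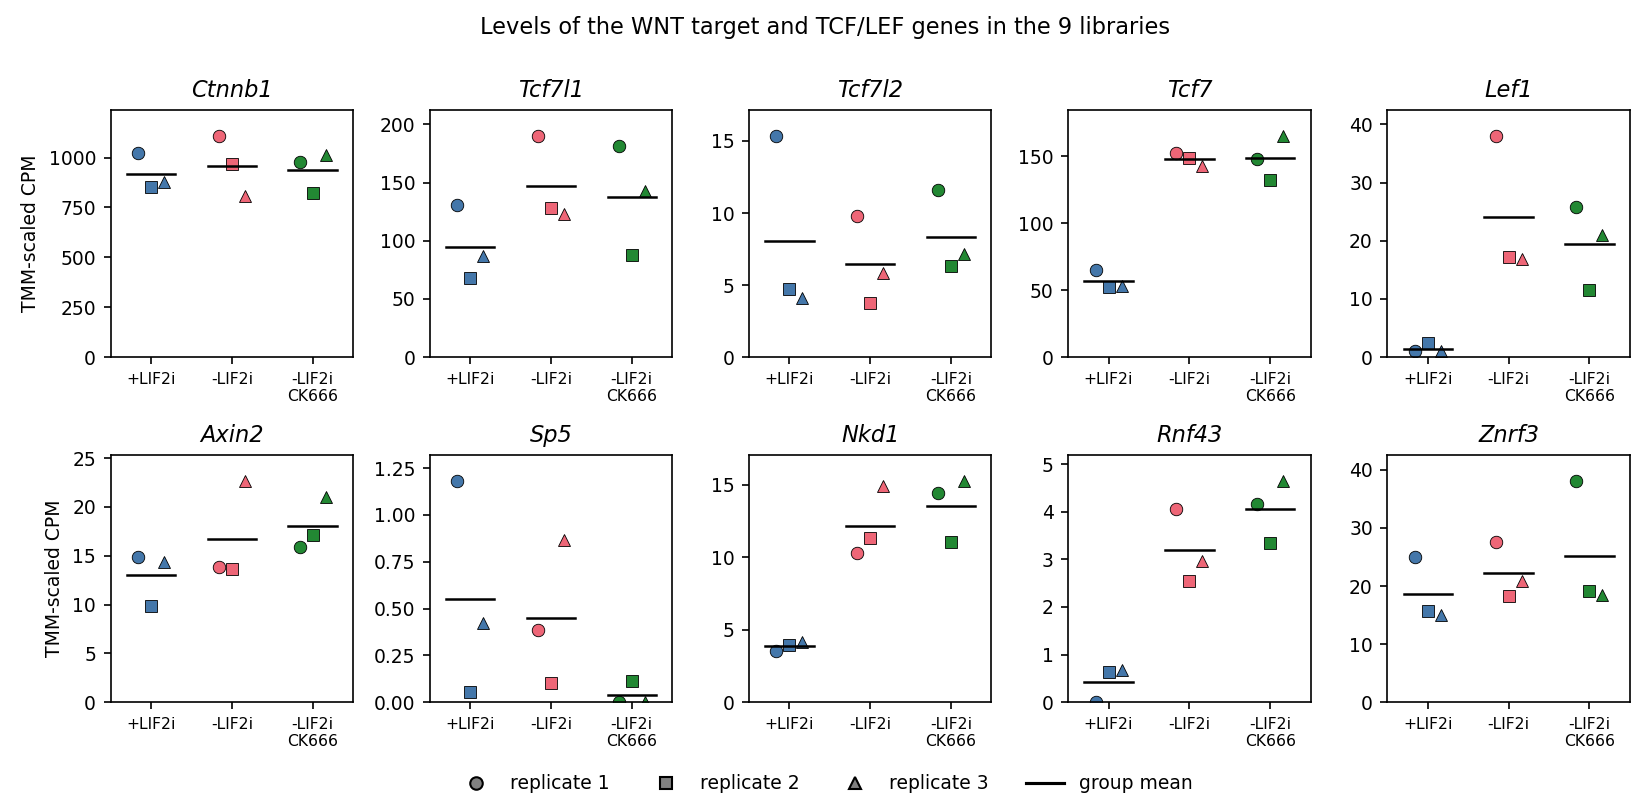
Levels of the 10 genes in each library, in CPM, that is counts divided by the library's TMM-adjusted total, on linear axes that start at 0. Each point is 1 library, its shape gives the replicate number and the bar is the mean of the 3 libraries of a group. Tcf7, Lef1, Nkd1 and Rnf43 are higher in every library without LIF2i than in every library with it, whereas replicate 1 (circles) lies highest in the Tcf7l1, Tcf7l2 and Znrf3 panels.

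Ctnnb1 (chr9:120929216-120960507, plus strand) encodes β-catenin, the transcriptional effector of the pathway and a component of cell junctions. Its level with LIF2i was 1023, 853 and 878 CPM in replicates 1, 2 and 3, without LIF2i it was 1107, 966 and 806 CPM, and with CK666 it was 976, 825 and 1011 CPM. The 3 ranges overlapped. In edgeR's test the log2 fold change on withdrawal was 0.06 with an SE of 0.14 and a 95% interval from -0.25 to 0.37 (adjusted p = 0.752). For CK666 against control it was -0.03, with an interval from -0.34 to 0.28. Ctnnb1 had the highest level per length of the 10 genes in each group, at 403 ± 102, 424 ± 93.7 and 407 ± 52.6 TPM (mean ± SD, n = 3). Between 86.7% and 97.7% of its TPM in a library came from 1 transcript, which encodes the protein of 781 residues. Of its exonic bases, 15.1% are shared with other annotated genes, mostly Ulk4 on the other strand.

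Tcf7l1 (chr6:72626378-72789254, minus strand) encodes the family member that mainly represses in embryonic stem cells. It was at 130, 67.6 and 86.5 CPM with LIF2i and at 190, 128 and 123 CPM without it. The groups overlapped, since replicate 1 was the highest library in each, but the level without LIF2i was the higher one in all 3 pairs of the same replicate number. The log2 fold change was 0.67 with an SE of 0.14, a 1.59-fold rise (edgeR, adjusted p = 0.00526). Without the replicate block the change was 0.63 and was not called (edgeR, adjusted p = 0.192), so this call rests on the pairing of the libraries. With replicate 1 left out it was 0.75 (edgeR, adjusted p = 0.00547).

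Tcf7 (chr11:52252371-52283014, minus strand) encodes TCF1, a family member usually described as an activator with β-catenin. Its level was 65.1, 52.3 and 52.8 CPM with LIF2i and 152, 149 and 143 CPM without it. The groups did not overlap and the libraries within each lay close together. Tcf7 rose 2.62-fold, a log2 fold change of 1.39 with an SE of 0.12 (edgeR, adjusted p = 4.33e-05), and was called in all 18 alternative fits. Both Tcf7 transcripts measured share 1 coding start and encode 303 residues, and whether these forms act as an activator was not tested. RefSeq lists further Tcf7 transcripts, and whether reads of longer forms enter this level was not tested. The 2 measured transcripts were present in every library, the longer one with 49.8% to 63.4% of the gene's TPM.

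Lef1 (chr3:131110471-131224356, plus strand) encodes the TCF/LEF member that is itself a widely used WNT target gene. It was at 0.983, 2.35 and 1.09 CPM with LIF2i, where 20, 45 and 18 counts were seen, and at 38.0, 17.1 and 16.9 CPM without it. The groups did not overlap, and replicate 1 without LIF2i was the highest library. The log2 fold change of 3.90 with an SE of 0.46 was a 14.9-fold rise, with a 95% interval from 7.22 to 30.9-fold (edgeR, adjusted p = 0.000242). It was called in all 18 alternative fits, with a log2 fold change of 3.29 without replicate 1, 4.65 without replicate 2 and 4.74 without the LIF2i replicate 2 library. Of the exonic bases of Lef1, 13.8% are shared with Gm43352, an annotated antisense gene, and whether counting used strand is not given in the sources used here.

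Tcf7l2 (chr19:55741820-55933654, plus strand) encodes TCF4, a family member best known from the intestine. It was at 15.3, 4.76 and 4.07 CPM with LIF2i, at 9.79, 3.74 and 5.83 CPM without it and at 11.6, 6.34 and 7.15 CPM with CK666. Replicate 1 was the highest library in every group and all 3 ranges overlapped. The log2 fold change on withdrawal was -0.20, with a 95% interval from -0.85 to 0.45 (edgeR, adjusted p = 0.622).

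**Figure D2:**
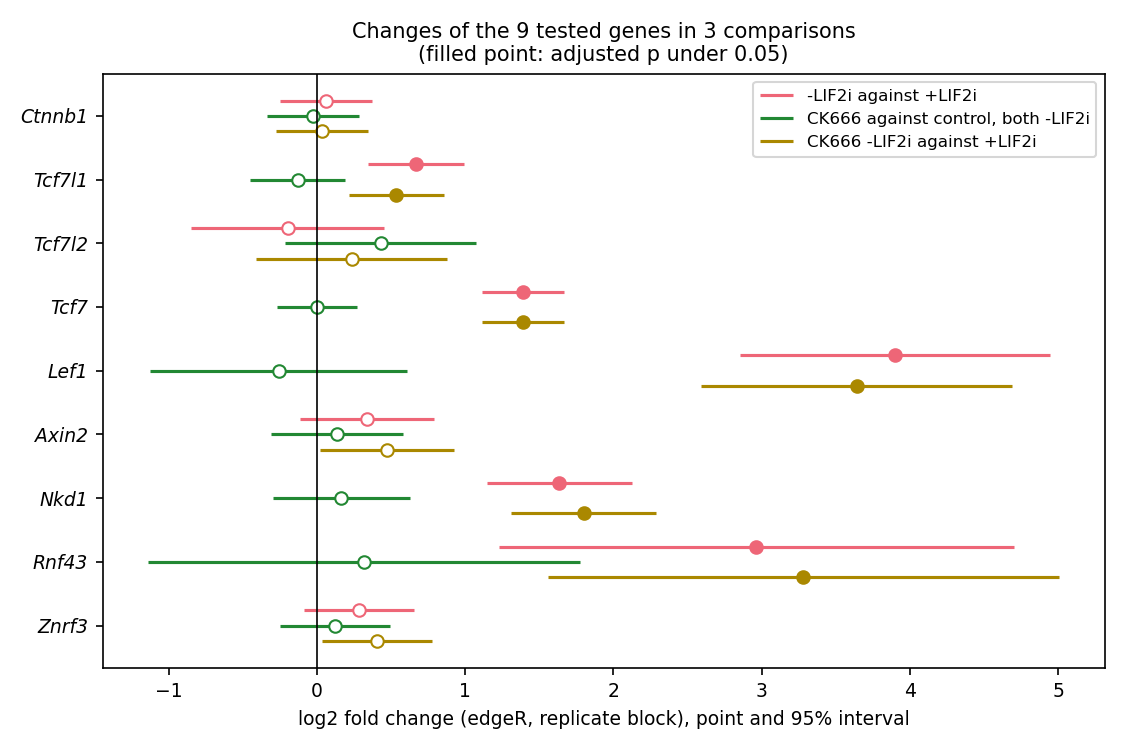
Log2 fold change of the 9 tested genes in the 3 comparisons, with points for edgeR's estimate with the replicate block and bars for its 95% interval. Filled points mark an adjusted p under 0.05. For CK666 against control, all 9 intervals span 0, whereas Tcf7l1, Tcf7, Lef1, Nkd1 and Rnf43 are filled in both comparisons with LIF2i cells, which share those libraries.

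Axin2 (chr11:108920349-108950783, plus strand) encodes a scaffold of the destruction complex and is among the most used reporters of WNT signalling. Its level was 14.8, 9.83 and 14.3 CPM with LIF2i, 13.9, 13.6 and 22.6 CPM without it and 15.9, 17.1 and 21 CPM with CK666. The groups with and without LIF2i overlapped, and the level without LIF2i was the higher one in 2 of 3 pairs. The log2 fold change was 0.34 with an SE of 0.20 and was not called (edgeR, adjusted p = 0.211). Without replicate 1 it was 0.60 and was called (edgeR, adjusted p = 0.031), as it was, at 0.58, without the replicate 1 library with LIF2i alone (edgeR, adjusted p = 0.0298). The other alternative fits did not call it, with 0.28 without replicate 2 (edgeR, adjusted p = 0.491) and 0.17 without replicate 3 (edgeR, adjusted p = 0.712). In the replicate 1 library with LIF2i the transcript encoding 840 residues held 34.6% of Axin2 TPM and one encoding 775 residues held 48.9%. In the other 8 libraries the 840-residue transcript held 52.6% to 85.3%.

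Nkd1 (chr8:88521354-88594884, plus strand) encodes an antagonist that acts on Dishevelled. It was at 3.54, 3.92 and 4.19 CPM with LIF2i and at 10.3, 11.4 and 14.9 CPM without it, with no overlap. Nkd1 rose 3.11-fold, a log2 fold change of 1.64 with an SE of 0.22 (edgeR, adjusted p = 0.000378), and was called in all 18 alternative fits. Transcripts whose coding start lies downstream of the one for the full 471 residues held 27.9% to 82.9% of its TPM, with the highest share in replicate 1 with LIF2i, where the gene had 72 counts.

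Rnf43 (chr11:87662722-87735539, plus strand) and Znrf3 (chr11:5276324-5444847, minus strand) encode membrane ubiquitin ligases that remove WNT receptors from the cell surface. Rnf43 had 0, 12 and 11 counts with LIF2i and 84, 49 and 55 without it, which is 0, 0.627 and 0.668 CPM against 4.05, 2.54 and 2.97 CPM. The count of 0 allows up to 0.147 CPM in that library, and the groups did not overlap. The log2 fold change was 2.96 with an SE of 0.77, 7.80-fold with a 95% interval from 2.34 to 26.0-fold (edgeR, adjusted p = 0.0133). With an offset for effective length it was 0.96 and was not called (edgeR, adjusted p = 0.561), and without replicate 3 it was 3.51 and not called (edgeR, adjusted p = 0.0689). It was 2.18 without the LIF2i replicate 1 library and 3.61 without the LIF2i replicate 2 library, and 2.10 and 3.65 without all of replicate 1 or replicate 2, called in each. On the TPM scale, which also divides by effective length, Rnf43 lay at 0, 2.41 and 0.789 with LIF2i and 1.92, 2.02 and 1.24 without it, so there the ranges overlapped.

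The division of Rnf43 between transcripts rested on few counts and was not tested. A non-coding transcript of 364 bases held 93.5% and 69.0% of its TPM in replicates 2 and 3 with LIF2i, from 4 and 0.840 estimated counts. It also held 29.0% in replicate 2 without LIF2i and 57.4% in replicate 1 with CK666, and 0% in the other 4 libraries with Rnf43 counts. Its share was thus higher in replicates 2 and 3 with LIF2i than in every library without LIF2i, but it rested there on those few counts. The coding transcripts had 0, 4.52 and 4.91 estimated counts with LIF2i, 49.3, 42.6 and 36.1 without it, and 38.4, 35.2 and 64.0 with CK666. From coding transcripts alone, an alternative added after the data were seen, the log2 fold change on withdrawal was 3.67 with an SE of 0.79 (edgeR, adjusted p = 0.00605).

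Znrf3 was at 25.0, 15.6 and 15.0 CPM with LIF2i and at 27.6, 18.3 and 20.8 CPM without it. The ranges overlapped, although the level without LIF2i was the higher one in 3 of 3 pairs. The log2 fold change of 0.28, with a 95% interval from -0.09 to 0.66, was not called (edgeR, adjusted p = 0.202), nor was it in any of the 18 alternative fits.

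Sp5 (chr2:70474923-70477729, plus strand), a transcription factor gene widely used as a direct WNT target, had 24, 1 and 7 counts with LIF2i, 8, 2 and 16 without it and 0, 2 and 0 with CK666. The 3 ranges overlapped in CPM, and the counts of 0 allow up to 0.142 and 0.168 CPM in replicates 1 and 3 with CK666. When no filter was applied, the log2 fold change for CK666 against control was -3.04, with an SE of 1.53 (edgeR, adjusted p = 0.417). In the comparison of CK666 with LIF2i cells, Sp5 passed the filter in some fits that left libraries out and was called lower in 2 of them, without replicate 2 (edgeR, adjusted p = 0.0496) and without the CK666 replicate 2 library (edgeR, adjusted p = 0.0378). With all libraries in the fit and no filter, the adjusted p for that comparison was 0.167 in edgeR.

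Promoter windows are shown for Sp5, the gene with the most matches to TCF/LEF letters, for Tcf7, which rose in all fits, and for Axin2, which did not pass the test. They come from RefSeq on GRCm38.p6, run from 250 bases before to 50 bases after the annotated start, and are written 5′ to 3′ on the gene's strand. Capitals mark, on either strand, the motif CTTTGAA or the motif CTTTGAT or the motif CTTTGTA or the motif CTTTGTT, letters of the TCF/LEF type. No matches overlapped in the windows shown. The windows are chr2:70474673-70474972 on the plus strand, chr11:52282965-52283264 on the minus strand and chr11:108920099-108920398 on the plus strand.
Sp5: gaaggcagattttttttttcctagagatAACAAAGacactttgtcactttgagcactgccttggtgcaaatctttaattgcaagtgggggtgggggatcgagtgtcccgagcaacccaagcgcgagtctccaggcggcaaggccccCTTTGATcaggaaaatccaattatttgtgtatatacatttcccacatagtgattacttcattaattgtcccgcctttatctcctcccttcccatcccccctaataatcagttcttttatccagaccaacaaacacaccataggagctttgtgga
Tcf7: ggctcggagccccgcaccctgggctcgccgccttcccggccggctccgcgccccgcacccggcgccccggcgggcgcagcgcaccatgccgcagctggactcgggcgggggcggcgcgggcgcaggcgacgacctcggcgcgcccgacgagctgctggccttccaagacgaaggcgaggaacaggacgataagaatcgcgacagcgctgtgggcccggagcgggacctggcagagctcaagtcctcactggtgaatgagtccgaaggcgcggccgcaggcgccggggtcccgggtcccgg
Axin2: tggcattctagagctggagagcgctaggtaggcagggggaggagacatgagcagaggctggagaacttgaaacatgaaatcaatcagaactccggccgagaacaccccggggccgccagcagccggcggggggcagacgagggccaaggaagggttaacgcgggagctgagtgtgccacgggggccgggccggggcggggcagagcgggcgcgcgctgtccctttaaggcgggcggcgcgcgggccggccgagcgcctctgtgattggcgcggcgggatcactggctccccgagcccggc
The Sp5 window held 2 matches, 222 and 104 bases before the start (position of the first base), and the Tcf7 and Axin2 windows shown held none. The Tcf7 window precedes the start of a 303-residue form, and its bases may be coding in a longer form, which was not tested. Among the 16 windows listed for 9 of the genes, 3 held a match (18.8%), against 16.9% of all 32851 windows of this length. The other matches lay at an internal start of Tcf7l2 and an internal start of Lef1, and Znrf3 had no entry. A match describes letters only, and a window without one does not speak to binding elsewhere.

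Per length, Lef1 and Tcf7l2 stood in opposite order in the control groups with and without LIF2i, with no overlap of their TPM ranges in either. With LIF2i, Tcf7l1 had the highest mean level of the 4 TCF/LEF genes at 58.9 ± 32.8 TPM, followed by Tcf7 at 38.8 ± 13.1, Tcf7l2 at 5.89 ± 6.42 and Lef1 at 0.695 ± 0.374 TPM (mean ± SD, n = 3). Without LIF2i, Tcf7 was at 102 ± 15.1 TPM, Tcf7l1 at 89.4 ± 33.3, Lef1 at 11.6 ± 6.96 and Tcf7l2 at 4.26 ± 1.53 TPM. The ranges of Tcf7l1 and Tcf7 overlapped in every group. Within a library, Tcf7l1 was above Tcf7 in 3 of 3 libraries with LIF2i, in 1 of 3 without it and in 1 of 3 with CK666. Among the feedback genes the ranges of Axin2 and Znrf3 overlapped in each group, at means of 6.57 to 8.95 TPM.

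As a share of the summed TPM of the 4 genes, Tcf7l1 made up 58.6%, 49.3% and 58.2% with LIF2i and 46.8%, 39.8% and 40.6% without it, with no overlap. The Lef1 share was 0.316%, 1.70% and 0.533% with LIF2i and 7.19%, 4.32% and 4.36% without it, also with no overlap. The Tcf7 share went from 39.1% ± 6.21 to 50.3% ± 5.66 (SD, n = 3), was the higher one in 3 of 3 pairs and overlapped, and that of Tcf7l2 from 4.71% ± 3.04 to 2.03% ± 0.163. The Tcf7l2 difference of -2.68 percentage points was -1.06 without replicate 1, whose LIF2i library stood at 8.14%. In an exact two-sided permutation test, p was 0.10 for Tcf7l1, Lef1 and Tcf7l2, the smallest p that 3 against 3 allows, and 0.20 for Tcf7. Adjusted over the 12 share tests these exact values became 0.24 and 0.343, so none passed, and this unpaired test cannot reach 0.05. The summed level was 66.3 to 163 TPM with LIF2i and 173 to 273 TPM without it, so a lower share of Tcf7l1 stood beside a higher level of it.

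**Figure D3:**
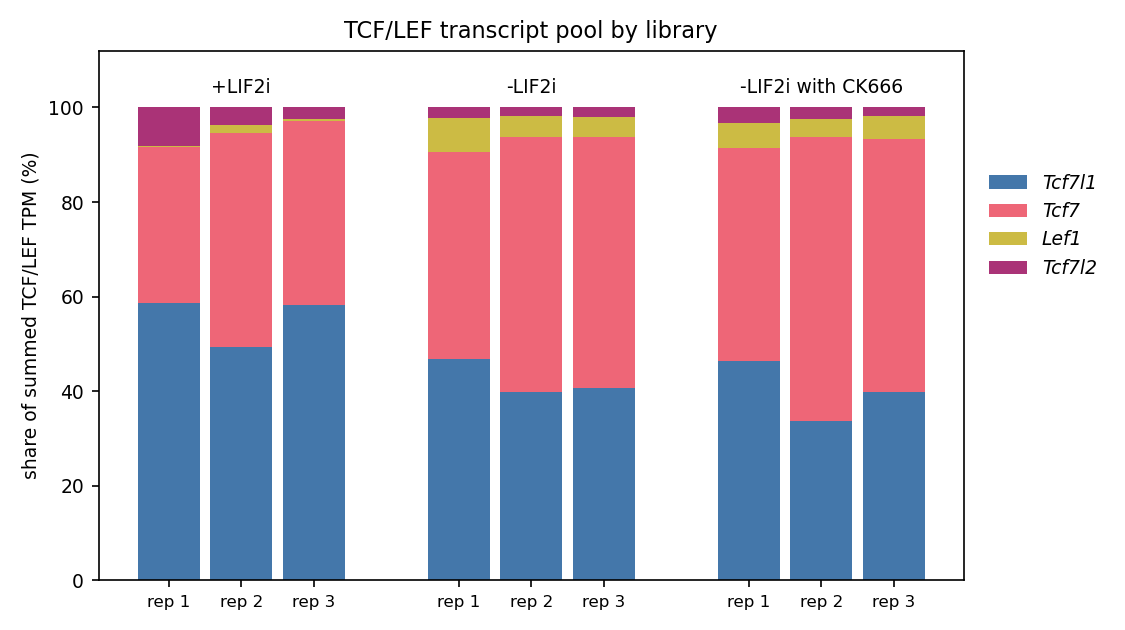
Share of each TCF/LEF gene in the summed TPM of the 4 genes, in percent, with 1 stacked bar for each library. The Tcf7l1 share is 49.3% to 58.6% in the libraries with LIF2i and 39.8% to 46.8% in the control libraries without it, and Lef1 is barely visible with LIF2i.

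The deposited estimates also divide Lef1 between transcripts, which was not tested. A transcript that begins within the gene and encodes 331 residues had 0 estimated counts in the 3 libraries with LIF2i and in replicate 1 without it, 36.6 and 28.0 in replicates 2 and 3 without it, and 51.7, 27.3 and 6.35 with CK666. With LIF2i the whole gene had only 18 to 45 counts, so a difference in its share was not detectable there. Its own first exon has 24 bases (chr3:131112797-131112820), of which 9 are coding, while the transcripts of 384 and 369 residues have a first exon of 1208 bases that it lacks. The first 30 coding bases of the 384-residue and 331-residue forms are shown because the 2 proteins start differently, with the start codon in capitals, from GENCODE M21 on GRCm38.
Lef1 384-residue form: ATGccccaactttccggaggaggcggcggg
Lef1 331-residue form: ATGgcaggggtggtcagacaagccccgtcc
The 369-residue form has the same start as the 384-residue form. The 384-residue form held 59.6% to 75.5% of Lef1 TPM in the 6 libraries without LIF2i.

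**Figure D4:**
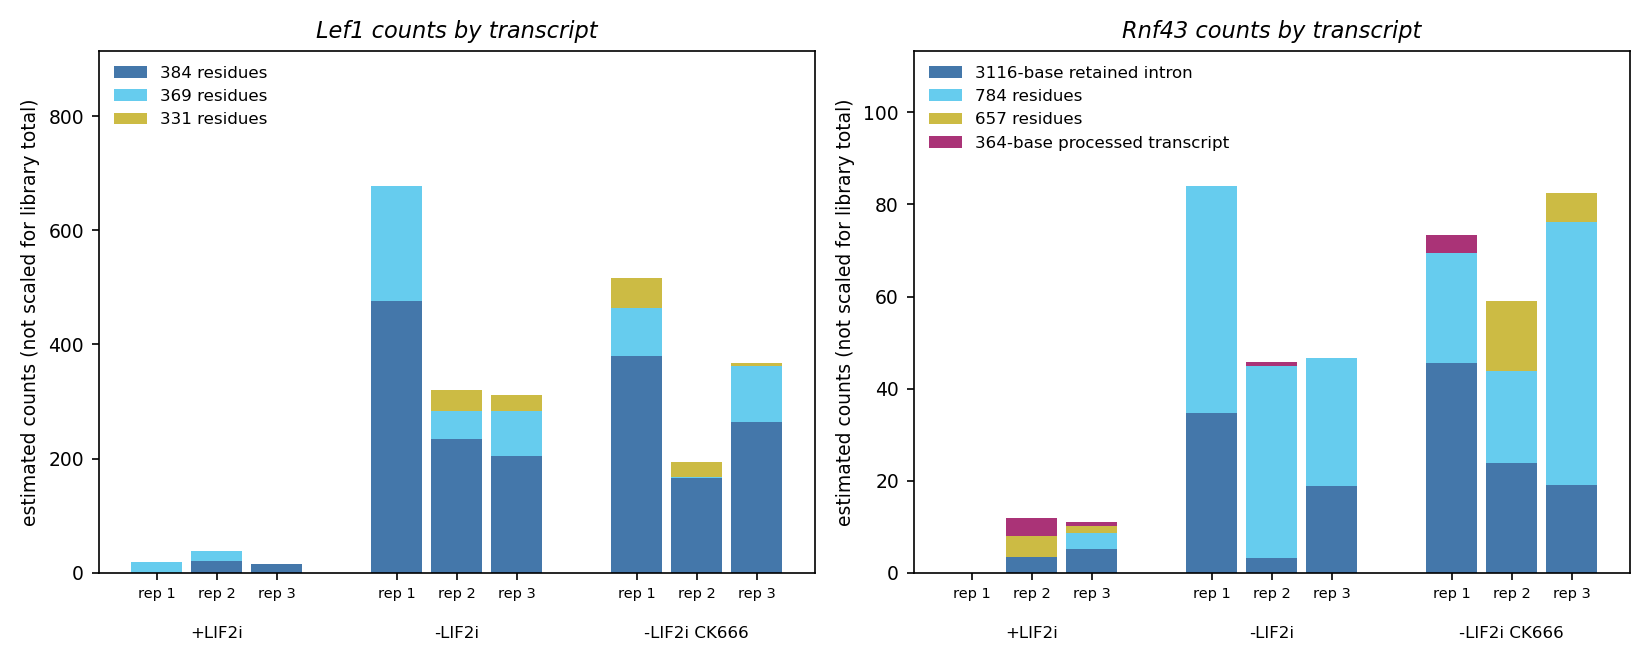
Estimated counts of the transcripts of Lef1 (left) and Rnf43 (right) that averaged at least 10% of the gene's TPM in a group, stacked for each library and not scaled for library totals. The 331-residue Lef1 transcript has 0 counts in the 3 libraries with LIF2i and 6.35 to 51.7 in those with CK666, and Rnf43 has 0 counts in replicate 1 with LIF2i.

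CK666 during withdrawal was compared with control cells withdrawn for the same time, to ask what the Arp2/3 complex contributes. None of the 9 tested genes was called by edgeR or by DESeq2, none had an unadjusted p under 0.05 in edgeR, where 19.7% of all genes did, and the log2 fold changes lay between -0.26 and 0.43. Over all genes, edgeR called 300 (2.05%) and DESeq2 called 1140 of the 14648, and edgeR without the replicate block called 0 of 14648 (0%), with the count at 1811 without replicate 1, 8 without replicate 2 and 0 without replicate 3. A miss of the threshold does not show that the genes were alike, and the intervals give what the data allow.

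Tcf7 had the narrowest interval. It was at 148, 132 and 165 CPM with CK666, and its log2 fold change of 0.00 had a 95% interval from -0.27 to 0.27, which is 0.829 to 1.21-fold. Tcf7l1 was at 182, 88.2 and 143 CPM with CK666, a log2 fold change of -0.13 with an interval from -0.45 to 0.19. For Lef1, at 25.9, 11.5 and 21 CPM, the log2 fold change was -0.26 with an interval from -1.13 to 0.61. The ranges of these TCF/LEF genes overlapped those of control cells without LIF2i.

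Tcf7l2 had the largest estimate, 0.43 with an interval from -0.21 to 1.08 (edgeR, adjusted p = 0.448), and was the higher one in 3 of 3 pairs. For the feedback genes the estimates were 0.14 for Axin2 (-0.31 to 0.58), 0.16 for Nkd1 (-0.30 to 0.63), 0.32 for Rnf43 (-1.14 to 1.77) and 0.12 for Znrf3 (-0.25 to 0.49), with 95% intervals in parentheses. With CK666, Nkd1 lay at 14.4, 11.04 and 15.2 CPM, Rnf43 at 4.17, 3.34 and 4.64 CPM and Znrf3 at 38.0, 19.1 and 18.5 CPM. Rnf43 was also the higher one in 3 of 3 pairs. Its interval was the widest of the 9, and its libraries held 59 to 88 counts with CK666. The shares of the TCF/LEF pool gave exact two-sided permutation p values of 0.40 to 0.70, with Tcf7l1 at 40.0% ± 6.32 and Lef1 at 4.67% ± 0.852 with CK666 (SD, n = 3). That test ignores the pairing. By pair, the share with CK666 was the higher one in 3 of 3 for Tcf7, 0 for Tcf7l1, 1 for Lef1 and 2 for Tcf7l2.

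Cells withdrawn with CK666 were also compared with LIF2i cells, the libraries that the withdrawal comparison uses too. Here 5 of the 9 genes were higher and none lower, where 36.9% of all genes were called, 19.8% as higher and 17.1% as lower. Without the replicate block 4 were called, against 20.2% of all genes. The log2 fold changes were 1.39 for Tcf7, 3.64 for Lef1, 1.799 for Nkd1, 3.28 for Rnf43 and 0.54 for Tcf7l1 (edgeR, adjusted p from 5.37e-05 to 0.0167). The first 4 of these did not overlap in CPM with the LIF2i group, as for 20.5% of all genes in this direction. Lef1 was at 4.48 without replicate 2 and 4.44 without the LIF2i replicate 2 library. When libraries or replicates were left out, Rnf43 ranged from 2.52 without the LIF2i replicate 1 library (2.60 without replicate 1) to 3.91 without the LIF2i replicate 2 library (3.90 without replicate 2). It was not called without replicate 3, at 3.68 (edgeR, adjusted p = 0.069), or with the effective-length offset, at 1.63 (edgeR, adjusted p = 0.349). Tcf7l1 was not called without the replicate block, at 0.54 (edgeR, adjusted p = 0.286), or without replicate 3, at 0.44 (edgeR, adjusted p = 0.151), and leaving out the LIF2i replicate 2, LIF2i replicate 3 or CK666 replicate 3 library alone gave adjusted p of 0.0544, 0.0707 and 0.101 in edgeR. Axin2 had no overlap either but missed the threshold at 0.47 (edgeR, adjusted p = 0.0928), and was called at 0.68 without replicate 1 (edgeR, adjusted p = 0.0185) and at 0.70 without the LIF2i replicate 1 library (edgeR, adjusted p = 0.0137). Znrf3, at 0.41, was not called (edgeR, adjusted p = 0.0825).

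In the rest of the pathway, genes moved in both directions on withdrawal. Of 18 tested genes of the destruction complex, its kinases and the upstream receptors, 5 rose and 4 fell, beside the 40.7% called over all genes, with a median log2 fold change of 0.06. The fit with no block called 6 of them and 24% of all genes. Csnk1e, a casein kinase gene, fell from 147, 249 and 200 CPM to 81.0, 110 and 96.6 CPM, with a log2 fold change of -1.03 and an SE of 0.11 (edgeR, adjusted p = 0.000113). Amer1, which encodes a membrane partner of APC, rose by 0.90 with an SE of 0.22 (edgeR, adjusted p = 0.00981), but was not called without the block (edgeR, adjusted p = 0.267). None of the 18 was called with CK666 by edgeR with all libraries, where 2.05% of all genes were, while 2 were without replicate 1, where 12.3% of all genes were.

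Of 16 tested co-regulators of TCF proteins, 4 rose and 4 fell on withdrawal, beside the 40.7% called over all genes, with a median log2 fold change of 0.08. The fit with no block called 4 of them and 24% of all genes. The 2 with the largest change were Aes and Tle3. Tle3 encodes a Groucho co-repressor that binds TCF proteins, and Aes a short member of the same family. Aes fell by 2.08 with an SE of 0.18 on the log2 scale (edgeR, adjusted p = 3.58e-05), and Tle3 went from 231, 321 and 256 CPM to 100, 107 and 117 CPM, a log2 fold change of -1.30 with an SE of 0.14 (edgeR, adjusted p = 0.000109). Tle3 was the 1 gene of the 4 lists called with CK666, out of 52 tested (1.92%, against 2.05% of all genes). Without replicate 1, 11 of 51 were called, Aes among them, against 12.3% of all genes. Tle3 stood at 129, 208 and 191 CPM with CK666, above every control library without LIF2i and below every LIF2i library, and rose by 0.67 with an SE of 0.14 against control (edgeR, adjusted p = 0.0426). Without the replicate block it was not called (edgeR, adjusted p = 0.374), and 6 of 18 alternative fits called it.

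Of 18 other genes listed as WNT targets, 14 were tested, and 6 rose and 3 fell, beside the 40.7% called over all genes, with a median log2 fold change of 0.46. The fit with no block called 5 of them and 24% of all genes. T, Cdx2, Dkk1 and Wif1 did not pass the filter. Myc, a growth regulator with many inputs besides WNT, went from 4.08, 0.784 and 2.19 CPM to 52.3, 13.7 and 49.2 CPM, a log2 fold change of 4.15 with an SE of 0.36 (edgeR, adjusted p = 3.68e-05). With CK666 it lay at 41.3, 5.61 and 10.2 CPM, a log2 fold change of -1.28 that was not called (edgeR, adjusted p = 0.0636) but was, at -1.83, without replicate 1 (edgeR, adjusted p = 0.00304). Cdx1, a homeobox gene, fell from 5.45, 1.93 and 3.52 CPM to 0, 0 and 0.270 CPM, with a fitted log2 fold change of -5.47 and an SE of 1.33 (edgeR, adjusted p = 0.00993). Its size depended on the libraries, from -4.26 without the LIF2i replicate 1 library to -9.36 without replicate 3, and the fold rests on a group near 0.

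All 4 genes listed as repressed by TCF7L1, Esrrb, Nanog, Tfcp2l1 and Klf2, fell on withdrawal, where 19.7% of all genes were called lower, with a median log2 fold change of -4.98. Klf2 was at 266, 138 and 210 CPM with LIF2i and at 5.60, 6.33 and 6.75 CPM without it. Tfcp2l1 was at 1385, 522 and 584 CPM with LIF2i and at 12.1, 20.5 and 16.03 CPM without it, and at 29.4, 74.7 and 28.4 CPM with CK666, a difference that was not called (log2 fold change 1.37, edgeR, adjusted p = 0.187). Its level was the higher one with CK666 in 3 of 3 pairs, without overlap, as for 8.79% of all genes in this direction, and 1 of 18 alternative fits called it, the one without the LIF2i replicate 1 library (edgeR, adjusted p = 0.04).

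Across the 9 libraries, the protein-coding genes whose log2 CPM was most like that of Lef1 among 9497 candidates were Tead2 (Pearson r = 0.997), Pxdn (0.994), Unc5b (0.993), Limd2 (0.990) and Nr2f6 (0.987). Tcf7 (r = 0.948), Nkd1 (0.930) and Rnf43 (0.906) had the highest values with Lef1 among the other tested members, followed by Tcf7l1 (0.650), Znrf3 (0.459), Axin2 (0.425), Ctnnb1 (0.254) and Tcf7l2 (0.077). The genes most like Axin2 were Mafg (r = 0.911), Tent4a (0.904), Mnt (0.894), Wars2 (0.879) and Helq (0.871). These values describe the pattern over 3 groups that share replicate numbers, so group means and the replicate 1 libraries both enter them.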

How the data were processed

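Poly-A RNA of 9 E14 libraries was sequenced, per the labels' protocols. The authors deposited for each library 119414 transcripts with estimated counts, TPM (scaled per library after division by effective length) and effective length, another per-library column; per the file headers no count is normalised. The submitters' processing notes list FastQC, cutadapt 1.8.1, kallisto, sleuth, GRCh38 and mm10, without roles; the transcript release and strand setting are not given in the sources used here.

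Transcripts were assigned to GENCODE M21 genes by Ensembl identifier (97.7% matched; 2774 unmatched ones held 0.895% to 1.08% of counts and were left out). The deposited estimated counts were summed per gene and rounded. edgeR 4.0.16 in R 4.3.3 was run with TMM scaling, its expression filter and a robust quasi-likelihood test on all 9 libraries in one fit, with the replicate number as a block; genes were called at a Benjamini-Hochberg adjusted p under 0.05 over all genes tested, and SEs were derived from the test statistic. CPM are TMM-scaled. Pairing was taken from the design text, which calls the replicates paired, and from the title numbers; deviations of same-numbered libraries from their group means correlated at 0.303 to 0.653 (median 0.407). DESeq2 1.42.0 and 17 other fits were alternatives, 18 in all. The CK666 test was also run on simulated counts that held genes with known changes. It recovered 53 of 100 genes changed by 1 on the log2 scale and 76 of 100 changed by 2, with 5 false calls. Separate libraries were treated as the biological replicates that the design text names. A count of 3 was the detection floor (0.142 to 0.182 TMM-scaled CPM), which covers counting error only; the 95% intervals come from the fit and include the spread between libraries.

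All 10 members were named; of 4 lists of other pathway genes, those called with CK666 and the 2 with the largest called change on withdrawal were named, and for Lef1 and Axin2 the 5 most similar genes among those averaging at least 3 in log2 CPM. The members and lists were chosen with earlier results of these data known. Coordinates are 1-based GRCm38. Promoter windows are from RefSeq. One marker list is not reported here.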

Additional observations from a re-analysis of the deposited data

How the results depend on the processing

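Over the 18 alternative fits no log2 fold change of a called gene changed sign, and no member was called for CK666 against control. Of 5 members called on withdrawal, the fit without the replicate block called 4, as did the effective-length offset; the other fits that kept all libraries called 5, and leaving out replicates gave 4 to 6. Against LIF2i cells, CK666 cells had 5 members called, 4 without the replicate block and 3 to 6 when replicates or libraries were left out. The lowest was 3 without replicate 3, when Tcf7l1 and Rnf43 were lost and 16.1% of all genes were called, against 36.9% with all libraries, and some counts of 6 included Sp5 (lower) or Axin2. Over all genes, calls on withdrawal made up 24.0% without the block and 44.8%, 25.3% and 20.7% without replicate 1, 2 and 3, and with CK666 12.3% without replicate 1. As a share of summed estimated counts in place of TPM, the Lef1 gain was 6.09 percentage points on withdrawal and 5.02 in CK666 cells against LIF2i cells, against 4.44 and 3.82; leaving out replicates gave 3.22 to 5.35 and 3.21 to 4.72. The causes were not tested. Sp5 and Rnf43 had at most 24 and 12 counts in a library with LIF2i, and the part of depth was not tested.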
